A study of Mus musculus with 5 samples.

Results

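The genes described here encode the calcium/calmodulin-dependent protein kinases of the CaMKII, CaMK4 and CaMK1 families and the 2 kinases that activate CaMK4 and CaMK1. They are Camk2a, Camk2b, Camk2d, Camk2g, Camk4, Camk1, Camk1d, Camk1g, Camkk1 and Camkk2, chosen by gene name, and all 10 were listed among the 15093 genes measured and entered the comparison of groups. Ribosome-bound RNA was purified from Drd2-expressing neurons of the mouse central amygdala (CeA) by translating ribosome affinity purification (TRAP), in which an EGFP tag on the ribosomal protein L10a is pulled down with the messages it is translating. Each of the 5 libraries was made from bilateral CeA punches of 3 adult Drd2-TRAP mice, pooled and collected 2 h after the session. The question was how the translated messages of these neurons differ after fear learning, in 3 fear conditioned libraries (replicates 2, 3 and 4) and 2 home cage libraries (replicates 6 and 7).

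All mice of both groups carried the same 2 transgenes. One was a BAC Drd2-Cre transgene, and the other was an EGFP-tagged Rpl10a gene at the Rosa26 locus that is transcribed once Cre has removed a stop cassette, so the tag marks any cell in which the BAC has driven Cre. The fear conditioned mice had received tones paired with foot shocks. The labels of the samples name home cage controls and collection after extinction. The study's methods also call the controls HC, whereas its results describe controls given the tone without shock and collection after conditioning. What the controls experienced, and which session came before collection in either group, are therefore not settled by these sources. In what follows, after fear conditioning refers to the group as labelled. Replicates are separate pools of animals.

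Calcium entering an active neuron binds calmodulin, and the complex opens the catalytic domain of these kinases. CaMKII is a ring of subunits encoded by separate alpha, beta, delta and gamma genes, it can phosphorylate itself and stay active after calcium has fallen, and it is best known for its part in synaptic plasticity. CaMKK phosphorylates CaMK4 and CaMK1 in a cascade, in which CaMK4 acts in the nucleus on the transcription factor CREB and CaMK1 acts in the cytoplasm.

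Values are counts per 1000000 (CPM), scaled by the authors to an effective library size. Recovered reads on genes numbered from 19605318 to 27937520 per library. The summed level of 12 genes of striatal projection neurons, a class that includes Drd2 cells, was 24151 to 26044 CPM after fear conditioning. It was 9276 and 15264 CPM in home cage replicates 6 and 7, with none of the 12 at 0. Penk made up most of each sum (13565 to 16076 CPM against 6098 and 8606 CPM). The list also holds Drd1a, which the paper found rarely co-expressed with Drd2, so the sum does not check the Drd2 label. Drd2 itself had means of 418 CPM (n = 3) after fear conditioning and 195 CPM (n = 2) in the home cage group. Adora2a had means of 666 and 190 CPM. The groups did not overlap for either gene, beside 20.2% of all genes tested that were higher with no overlap. The limma adjusted p was 0.239 for Drd2 and 0.200 for Adora2a. The paper reports Adora2a as upregulated after conditioning and Drd2 as not significantly changed. The home cage libraries stood further apart than the fear conditioned libraries. They differed by more than 2-fold in 52.7% of the 13560 genes tested, whereas the range of the 3 fear conditioned libraries exceeded 2-fold in 8.31%. Home cage replicate 7 listed 2681 genes at 0, replicate 6 listed 976 and the fear conditioned libraries between 159 and 349.

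None of the 10 kinase genes passed the limma cutoffs (adjusted p under 0.05, absolute log2 fold change over 0.5), where 0% of all genes tested passed. At an unadjusted p under 0.05, 2 of the 10 were lower after fear conditioning (Camk2g and Camk2d) and 0 were higher, beside 7.32% and 9.49% of all genes. In 4 of the 10 (Camk2a, Camk2d, Camk2g and Camk1g) every fear conditioned library lay below both home cage libraries, beside 16.1% of all genes, and in 0 of the 10 every fear conditioned library lay above both, beside 20.2%. In either direction this was 4 of 10, beside 36.4% of all genes. The log2 fold changes of the kinase genes, fear conditioned over home cage, had a median of -0.33, with 5 above and 5 below 0, and the median of all genes tested was 0.083. DESeq2 on recovered reads passed 1 of the 10, Camk2g, beside 8.94% of all genes. In bulk libraries, fewer cells of a type and less RNA per cell cannot be told apart.

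**Figure D1:**
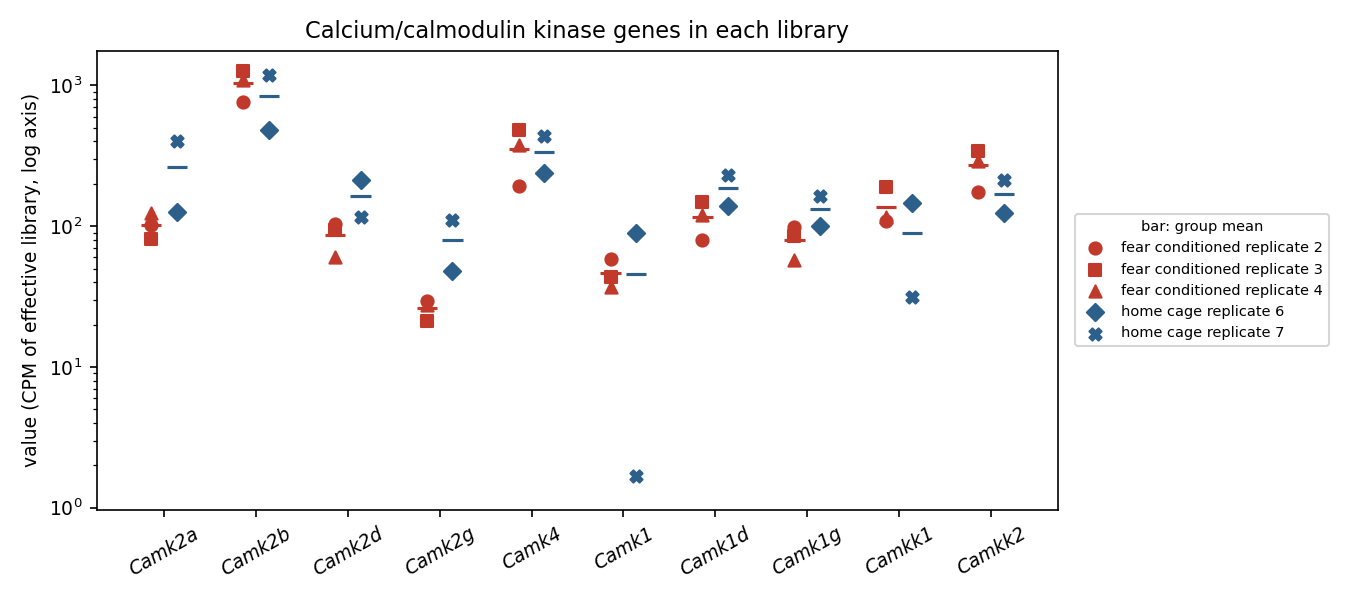
Value of each kinase gene (CPM of the effective library size, log axis) in the 3 fear conditioned libraries (red) and the 2 home cage libraries (blue), with bars at the group means. Camk2a, Camk2d, Camk2g and Camk1g have every red point below both blue points, and the lowest point of the plot is Camk1 in home cage replicate 7, at 1.69 CPM.

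The CaMKII subunit genes held 3 of the 4 kinase genes whose groups did not overlap (Camk2a, Camk2d and Camk2g, each lower after fear conditioning), while the most abundant of them, Camk2b, overlapped. Over all genes tested, 16.1% were lower with no overlap. Camk2a (ENSMUSG00000024617) encodes the alpha subunit, the main CaMKII of forebrain excitatory neurons, whose message is also translated in dendrites. It had 101, 80.8 and 124 CPM in replicates 2, 3 and 4 of the fear conditioned group, and 126 and 404 CPM in home cage replicates 6 and 7. The groups did not overlap, but fear conditioned replicate 4 and home cage replicate 6 were nearly level, and replicate 7 alone stood 3.20-fold above replicate 6. The group means were 102 ± 21.8 CPM (SD, n = 3) and 265 ± 196 CPM (SD, n = 2), so that the home cage mean was 2.59-fold the fear conditioned mean. The log2 fold change was -1.16 (standard error 0.50, 95% interval -2.37 to 0.055, limma adjusted p = 0.314), and the two-sided exact permutation p was 0.1, the smallest that 3 libraries against 2 allow. Without home cage replicate 7 it was -0.32.

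Camk2b (ENSMUSG00000057897) encodes the beta subunit, which binds actin and anchors the holoenzyme in spines. It had 762, 1266 and 1088 CPM in the fear conditioned pools and 484 and 1190 CPM in the home cage pools. The groups overlapped, since home cage replicate 7 exceeded 2 of the 3 fear conditioned libraries and replicate 6 was below them. The log2 fold change was 0.42 (standard error 0.44, 95% interval -0.64 to 1.48, limma adjusted p = 0.645), and it was -0.23 without home cage replicate 6 and 1.07 without replicate 7.

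Camk2d (ENSMUSG00000053819) encodes the delta subunit, the main form in heart and present in many tissues. It had 103, 94.1 and 60.9 CPM in the fear conditioned pools and 212 and 116 CPM in the home cage pools. Here home cage replicate 6 was the higher of the pair, 1.82-fold above replicate 7, and both were above every fear conditioned library. The means were 86.0 ± 22.2 CPM (SD, n = 3) and 164 ± 67.6 CPM (SD, n = 2), with a log2 fold change of -0.90 (standard error 0.37, 95% interval -1.78 to -0.0088, limma unadjusted p = 0.0484, adjusted p = 0.295), and it was -0.47 without home cage replicate 6.

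Camk2g (ENSMUSG00000021820) encodes the gamma subunit, a broadly expressed form of which a splice variant carries calmodulin to the nucleus in neurons. It had 29.4, 21.3 and 27.5 CPM in the fear conditioned pools and 48.3 and 111 CPM in the home cage pools. The fear conditioned values lay close together, within 1.38-fold, and the home cage values 2.30-fold apart, all above them. The means were 26.1 ± 4.25 CPM (SD, n = 3) and 79.5 ± 44.2 CPM (SD, n = 2), 3.05-fold higher in the home cage group. Its log2 fold change of -1.47 was the most negative of the kinase genes (standard error 0.43, 95% interval -2.51 to -0.43, limma unadjusted p = 0.0133, adjusted p = 0.217), and it was -0.88 without home cage replicate 7. The exact permutation p was 0.1 for Camk2d and for Camk2g. DESeq2 gave -1.66 with an adjusted p of 0.0209, and over the 10 alternative settings that keep all libraries the adjusted p ranged from 0.0209 to 0.909.

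**Figure D2:**
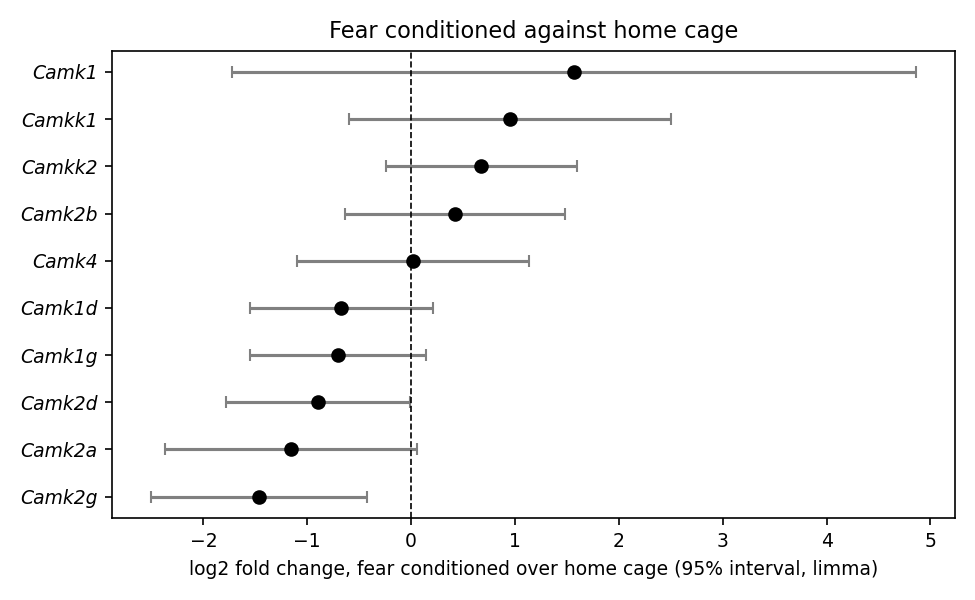
Log2 fold change of each kinase gene, fear conditioned over home cage, on the log2(CPM + 1) scale (points) with the 95% interval from limma (bars) and a dashed line at 0. The intervals of Camk2g and Camk2d lie below 0, that of Camk2d barely so (upper end -0.0088), and that of Camk1 is the widest, from -1.73 to 4.87.

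To compare the 4 subunit genes with each other, values were divided by the deposited gene length and expressed as a share of the sum of the 4 genes in that library, a quantity that does not depend on how libraries were scaled. Camk2b held 71.7%, 83.8% and 78.6% of the sum after fear conditioning (replicates 2, 3 and 4), compared with 50.8% and 55.7% in home cage replicates 6 and 7. Camk2a held 14.0%, 7.87% and 13.2% after fear conditioning and 19.4% and 27.8% in the home cage pools. The share of Camk2b was thus higher, and that of Camk2a lower, in every fear conditioned library than in either home cage library.

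Camk2g held 6.48%, 3.30% and 4.65% after fear conditioning and 11.9% and 12.1% in the home cage pools, again with no overlap. Camk2d held 7.83%, 5.03% and 3.55% against 17.9% and 4.40%, and its groups overlapped, since home cage replicate 7 was low. The 4 genes summed to 94.5, 134 and 123 CPM per kilobase after fear conditioning and to 84.8 and 190 CPM per kilobase in the home cage pools, which overlapped. The log2 ratio of Camk2a to Camk2b, on CPM not divided by length, was -3.34 ± 0.56 (SD, n = 3) after fear conditioning and -1.75 ± 0.27 (SD, n = 2) in the home cage group, a difference of -1.59. These shares and ratios were not tested, because they were formed from genes already compared above.

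**Figure D3:**
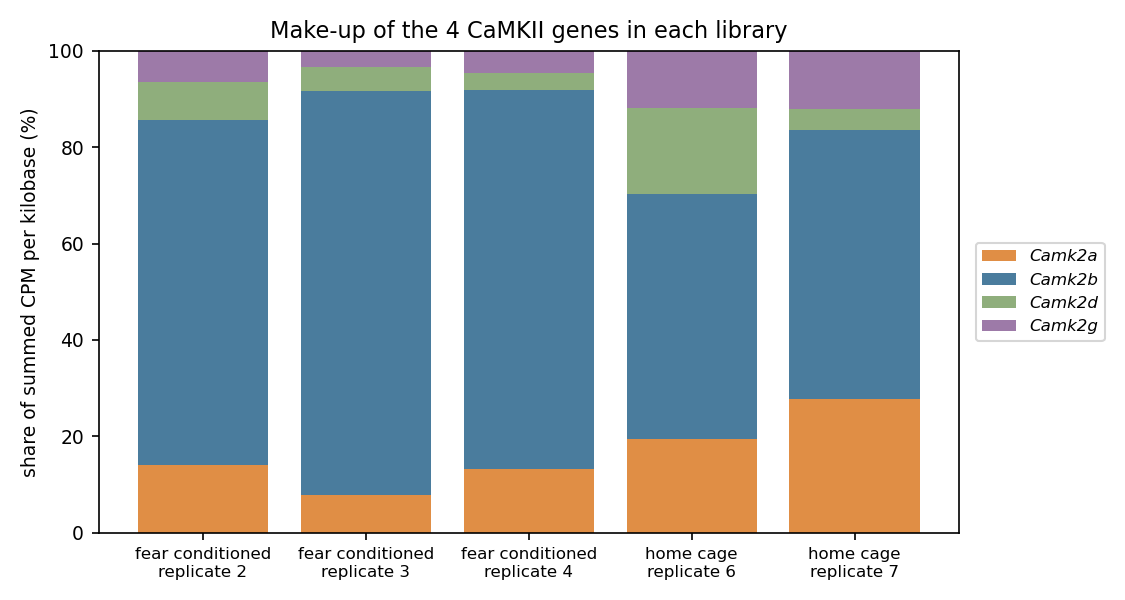
Share (%) of each CaMKII gene in the summed CPM per kilobase of the 4 genes, 1 stacked bar per library. Camk2b takes 71.7% to 83.8% of the fear conditioned bars and 50.8% and 55.7% of the home cage bars, while Camk2a takes 7.87% to 14.0% and 19.4% and 27.8%.

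Marker genes of other cell types, and of CeA neurons, to which the Drd2 cells themselves belong, also differed in level between the libraries. For pallial glutamatergic neurons, 11 of 11 listed genes summed to 389 to 653 CPM in the fear conditioned libraries and to 904 and 654 CPM in the home cage libraries, with a gap of less than 1 CPM between the groups, and Slc17a7, which encodes the vesicular glutamate transporter of cortical neurons, had 152, 141 and 34.5 CPM against 227 and 197 CPM. For astrocytes, 6 of 6 listed genes summed to 454 to 610 CPM against 1375 and 2127 CPM. Slc1a2 made up most of each sum (274 to 381 CPM against 843 and 1905 CPM). The log2 fold change was below 0 in 4 of the 6 and above 0 in 2, Aldh1l1 (0.78) and Gjb6 (1.93). These 2 had 32.2 and 39.8 CPM in home cage replicate 6, but 1.21 and 0.105 CPM in replicate 7. For oligodendrocytes, 6 of 6 listed genes summed to 1248 to 2640 CPM against 2707 and 5183 CPM. For choroid plexus, 6 of 6 genes summed to 58.0 to 110 CPM against 1009 and 1415 CPM, and Ttr made up most of the home cage sums (913 and 1320 CPM), whereas Clic6, at 50.9 to 77.2 CPM, made up most of the fear conditioned ones. Some genes of these lists were at 0 in a library (Folr1 and Kcnj13 in fear conditioned replicate 2, Otx2 and Rspo2 in home cage replicate 7). For CeA neurons, 8 of 8 listed genes summed to 176 to 315 CPM against 321 and 559 CPM, so the groups were nearly level at their closest. Sst and Nts together made up most of each sum. The log2 fold change was below 0 in 5 of the 8 and above 0 in 3, Ezr (0.32), Crh (1.03) and Tac2 (1.07). In home cage replicate 7, Crh was at 1.11 CPM and Tac2 at 0, against 29.9 and 27.7 CPM in replicate 6. For microglia the 6 genes (50.4 to 91.6 CPM against 102 and 83.0 CPM) and for endothelium the 4 genes (6.79 to 28.2 CPM against 27.2 and 161 CPM) overlapped. The part of these cell types in the values of Camk2a, Camk2d, Camk2g and Camk1g was not tested.

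Camk4 and the CaMK1 genes lie downstream of CaMKK. Camk4 (ENSMUSG00000038128), the nuclear kinase of the cascade, had 192, 483 and 378 CPM in the fear conditioned pools and 239 and 436 CPM in the home cage pools. It was the single kinase gene whose fear conditioned libraries ranged over more than 2-fold (2.52-fold), and both home cage values fell inside that range. The means were 351 ± 148 CPM (SD, n = 3) and 338 ± 139 CPM (SD, n = 2), with a log2 fold change of 0.018 (standard error 0.46, limma adjusted p = 0.988). Its 95% interval, -1.10 to 1.13, leaves a change of more than 2-fold in either direction undetected at this number of libraries.

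Camk1 (ENSMUSG00000030272) encodes the alpha form of CaMK1. It had 58.1, 43.7 and 37.0 CPM in the fear conditioned pools, and 90.1 and 1.69 CPM in home cage replicates 6 and 7. The home cage values were 53.4-fold apart, from 2698 and 32 recovered reads, and lay on either side of the fear conditioned libraries. The group means were nearly equal, at 46.3 ± 10.8 CPM (SD, n = 3) and 45.9 ± 62.5 CPM (SD, n = 2), whereas the log2 fold change was 1.57 (standard error 1.36, 95% interval -1.73 to 4.87, limma adjusted p = 0.577). This direction rested on replicate 7: without it the log2 fold change was -0.97 (adjusted p = 0.0408), and without replicate 6 it was 4.11 (adjusted p = 1.2e-04), in fits that assume the remaining home cage library to vary as the fear conditioned libraries do. On recovered reads, where fits weigh the arithmetic means, the log2 fold change was 0.057 in edgeR and 0.021 in DESeq2. Over the 5 fits that each left out a library, its adjusted p ranged from 1.2e-04 to 0.812.

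Camk1d (ENSMUSG00000039145), the delta form of CaMK1, had 79.4, 149 and 119 CPM in the fear conditioned pools and 139 and 233 CPM in the home cage pools. Fear conditioned replicate 3 exceeded home cage replicate 6, so the groups overlapped (log2 fold change -0.67, standard error 0.36, limma adjusted p = 0.395). Its log2 fold change was -1.05 without home cage replicate 6 and -0.30 without replicate 7. Camk1g (ENSMUSG00000016179), the gamma form, a membrane-anchored kinase of neurons, had 98.9, 85.0 and 57.2 CPM against 99.9 and 165 CPM. Its groups did not overlap, by a gap of less than 1 CPM between fear conditioned replicate 2 and home cage replicate 6, and the log2 fold change was -0.71 (standard error 0.35, 95% interval -1.55 to 0.14, limma adjusted p = 0.363). The two-sided exact permutation p of Camk1g was 0.2, and its log2 fold change was -0.35 without home cage replicate 7.

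The upstream kinases did not share a pattern over the libraries. Camkk1 (ENSMUSG00000020785) encodes CaMKK alpha and had 109, 189 and 115 CPM in the fear conditioned pools and 147 and 31.6 CPM in the home cage pools. Home cage replicate 7 was the low library, 4.63-fold below replicate 6, which lay inside the fear conditioned range. The log2 fold change was 0.96 (standard error 0.64, 95% interval -0.59 to 2.51, limma adjusted p = 0.476), and it was -0.13 without replicate 7.

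Camkk2 (ENSMUSG00000029471) encodes CaMKK beta, which also activates AMP-activated protein kinase. It had 176, 342 and 292 CPM in the fear conditioned pools and 123 and 214 CPM in the home cage pools. Fear conditioned replicate 2 fell between the home cage values and the others lay above both. The means were 270 ± 85.3 CPM (SD, n = 3) and 169 ± 64.4 CPM (SD, n = 2), with a log2 fold change of 0.68 (standard error 0.38, 95% interval -0.25 to 1.60, limma adjusted p = 0.412), and it was 0.28 without home cage replicate 6 and 1.07 without replicate 7. The log2 ratio of Camkk1 to Camkk2 was -0.96 ± 0.34 (SD, n = 3) after fear conditioning and -1.25 ± 2.13 (SD, n = 2) in the home cage group, where it was 0.25 in replicate 6 and -2.76 in replicate 7.

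Of the 10 kinase genes, 3 were lower in home cage replicate 7 than in replicate 6 (Camk1, Camkk1 and Camk2d) and 7 were higher. Among the fear conditioned libraries, replicate 3 was highest for 5 genes (Camk2b, Camk4, Camk1d, Camkk1 and Camkk2), replicate 2 for 4 (Camk2d, Camk2g, Camk1 and Camk1g) and replicate 4 for Camk2a. Camk1, Camkk1 and Camkk2 each overlap a gene that the table also lists, and the strand setting of the read counting is not given in the sources used here. These neighbours had low values: Ogg1 had 2.33 to 3.58 CPM in the fear conditioned pools and 2.60 and 5.96 CPM in the home cage pools, 4732414G09Rik had 0.993 to 1.94 CPM against 1.77 and 9.81 CPM, and P2rx4 had 10.1 to 15.0 CPM against 15.3 and 10.8 CPM. Both neighbours of the genes that were low in home cage replicate 7, Ogg1 and 4732414G09Rik, were at their highest in that library.

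CREB, the substrate of CaMK4, binds the palindrome TGACGTCA and its core TGACG. Promoter windows of 250 bases before the gene start were searched for both on both strands, in RefSeq sequence of build GRCm38.p6, which has 8 such windows for 7 of the 10 kinase genes. The palindrome was in 0 of the 8 windows and in 1.55% of 32851 windows of all genes. The core, which the palindrome contains, was in 2 of the 8, those of Camk1 and Camkk1, and in 17.8% of all windows. Both are shown because these 2 genes were also those with their lowest values in home cage replicate 7, and the matched letters are in capitals, on the strand of the gene. The match starts 185 bases before the start of Camk1 (chr6:113343923-113344172, minus strand) and 166 bases before the start of Camkk1 (chr11:73018738-73018987, plus strand), in windows with 58% and 74.4% G and C. A match is a description of the letters and not evidence of binding. Whether the core bears on the low values in home cage replicate 7 was not tested.
Camk1: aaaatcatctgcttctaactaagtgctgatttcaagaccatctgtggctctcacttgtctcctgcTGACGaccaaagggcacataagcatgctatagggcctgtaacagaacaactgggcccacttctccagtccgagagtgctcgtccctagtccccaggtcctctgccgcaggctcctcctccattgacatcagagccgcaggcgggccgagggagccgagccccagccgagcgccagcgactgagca
Camkk1: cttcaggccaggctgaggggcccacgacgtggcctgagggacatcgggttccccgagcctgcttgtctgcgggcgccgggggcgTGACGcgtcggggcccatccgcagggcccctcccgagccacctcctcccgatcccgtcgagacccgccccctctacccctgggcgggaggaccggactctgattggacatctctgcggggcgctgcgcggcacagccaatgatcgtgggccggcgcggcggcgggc

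Per kilobase of gene length, Camk2b had the highest level of the 10 genes in each of the 5 libraries, with a mean of 85.1 CPM per kilobase (lowest 43.0, highest 112), above 94.2% of all genes. Camkk2 was next by mean, at 67.4 CPM per kilobase (36.2 to 101). It exceeded the next gene by mean, Camk1g at 34.8 CPM per kilobase (19.7 to 56.7), in 5 of 5 libraries, though Camkk1 was above Camkk2 in home cage replicate 6.

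The middle of the order was not resolved by these libraries. Camk1g, Camkk1 at 31.2, Camk4 at 27.8, Camk2a at 21.9 and Camk1d at 18.9 CPM per kilobase were neighbours of which the first exceeded the next in 2, 4, 4 and 3 of 5 libraries in turn. Camk1d was above Camk2g in 5 of 5. The lowest levels per kilobase were those of Camk2g at 9.88, Camk2d at 8.41 and Camk1 at 7.67 CPM per kilobase, and within these the first exceeded the next in 2 of 5 libraries each time. Even Camk1 had a mean level above that of 60.5% of all genes. Camk2a ranked 6th or 7th of the 10 genes in the fear conditioned libraries and home cage replicate 6, and 4th in home cage replicate 7, where it had 52.8 CPM per kilobase.

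**Figure D4:**
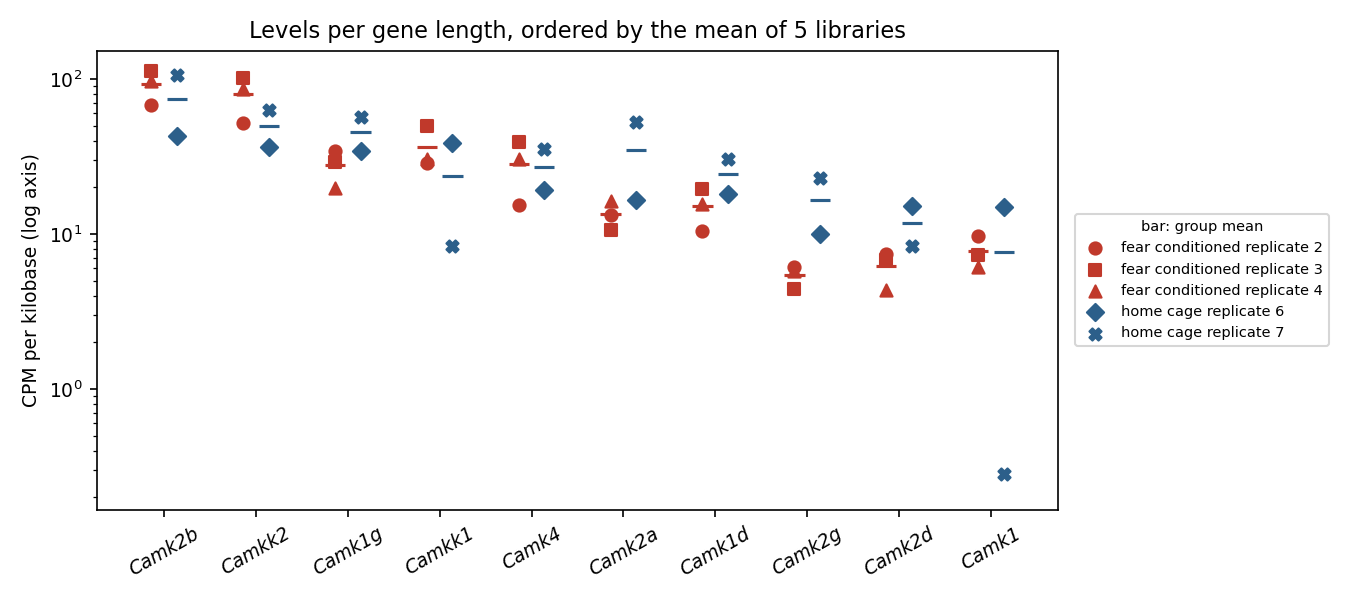
Level of each kinase gene per kilobase of gene length (CPM per kilobase, log axis), ordered by the mean of the 5 libraries, with fear conditioned libraries in red, home cage libraries in blue and bars at the group means. Camk2b is highest in every library, and the means fall from 85.1 to 7.67 CPM per kilobase.

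The other genes of the pathway were taken from 6 lists of 55 genes, of which 53 were listed (Mylk3 and Stk33 were not). They gave 53 tested rows, of which 2 were for Hdac4, which has 2 identifiers. None passed both cutoffs in limma. The groups did not overlap in 17 of them, 10 higher and 7 lower after fear conditioning, beside 20.2% and 16.1% of all genes, and their median log2 fold change was -0.014. DESeq2 on recovered reads passed 8 (Actn2, Calm2, Camk2n2, Dclk3, Pnck, Ppm1e, Ppp1ca and Ppp1cc), beside 8.94% of all genes.

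Of 4 genes closest to the kinases, the CaMKII inhibitors, a pseudokinase and the beta form of CaMK1, 2 had groups that did not overlap, both lower. This was so, in either direction, for 36.4% of all genes, with 16.1% lower. Camk2n2, an endogenous CaMKII inhibitor, had 16.8, 8.66 and 11.1 CPM in the fear conditioned pools and 34.4 and 58.4 CPM in the home cage pools (log2 fold change -1.85). Pnck, the beta form of CaMK1, had 143, 105 and 80.6 CPM against 281 and 315 CPM (log2 fold change -1.47), with the home cage libraries closer to each other than the fear conditioned ones. The more abundant inhibitor Camk2n1 had 562, 667 and 919 CPM against 365 and 2356 CPM, which overlapped, as did the log2 ratio of Camk2a to Camk2n1 (-2.80 ± 0.30, SD, n = 3, against -2.04 ± 0.72, SD, n = 2).

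The 6 genes for calmodulins and for proteins that hold calmodulin had a median log2 fold change of 0.28. Calm2, a calmodulin gene, was higher in every fear conditioned library, with 6941 to 7678 CPM against 4659 and 4898 CPM (log2 fold change 0.59). Nrgn, a calmodulin-binding protein of spines, was likewise higher in each, with 3518 to 4057 CPM against 1491 and 2759 CPM (log2 fold change 0.87).

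Among 8 phosphatase genes, 3 were higher and 1 lower with no overlap, beside 20.2% and 16.1% of all genes. Ppp1ca and Ppp1cc, catalytic subunits of protein phosphatase 1, which removes the activating phosphate of CaMKII, had 1195 to 1527 CPM against 597 and 328 CPM (log2 fold change 1.55), and 104 to 179 CPM against 45.4 and 30.3 CPM (log2 fold change 1.78). Ppp3r1, the regulatory subunit of calcineurin, had a log2 fold change of 0.56. Ppm1e, a CaMK phosphatase, had 17.5 to 20.5 CPM against 91.3 and 47.3 CPM (log2 fold change -1.74).

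Of 12 other calmodulin-dependent or CaMK-like kinases, Dclk3 (168 to 170 CPM against 57.9 and 94.3 CPM, log2 fold change 1.18) and Dapk3 (1.02) were higher and Mylk (-1.60) and Phkg2 (-0.62) lower with no overlap. Of 11 tested CaMKII partners and substrates, 10 had log2 fold changes below 0, beside 46.0% of all genes, and the groups did not overlap in 2, Actn2 (61.7 to 85.4 CPM against 25.1 and 19.0 CPM, log2 fold change 1.75) and Grin1, the obligatory NMDA receptor subunit (61.9 to 85.7 CPM against 87.5 and 165 CPM, log2 fold change -0.68). Of 12 tested rows for substrates of CaMK4, CaMK1 and CaMKK, Akt1 (log2 fold change 0.75) and Crtc1, a coactivator of CREB (-0.22), did not overlap, and Creb1 itself had 25.5, 31.1 and 33.5 CPM against 26.1 and 16.5 CPM, which overlapped. Beside the counts of these lists, 36.4% of all genes did not overlap, 20.2% higher and 16.1% lower.

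**Figure D5:**
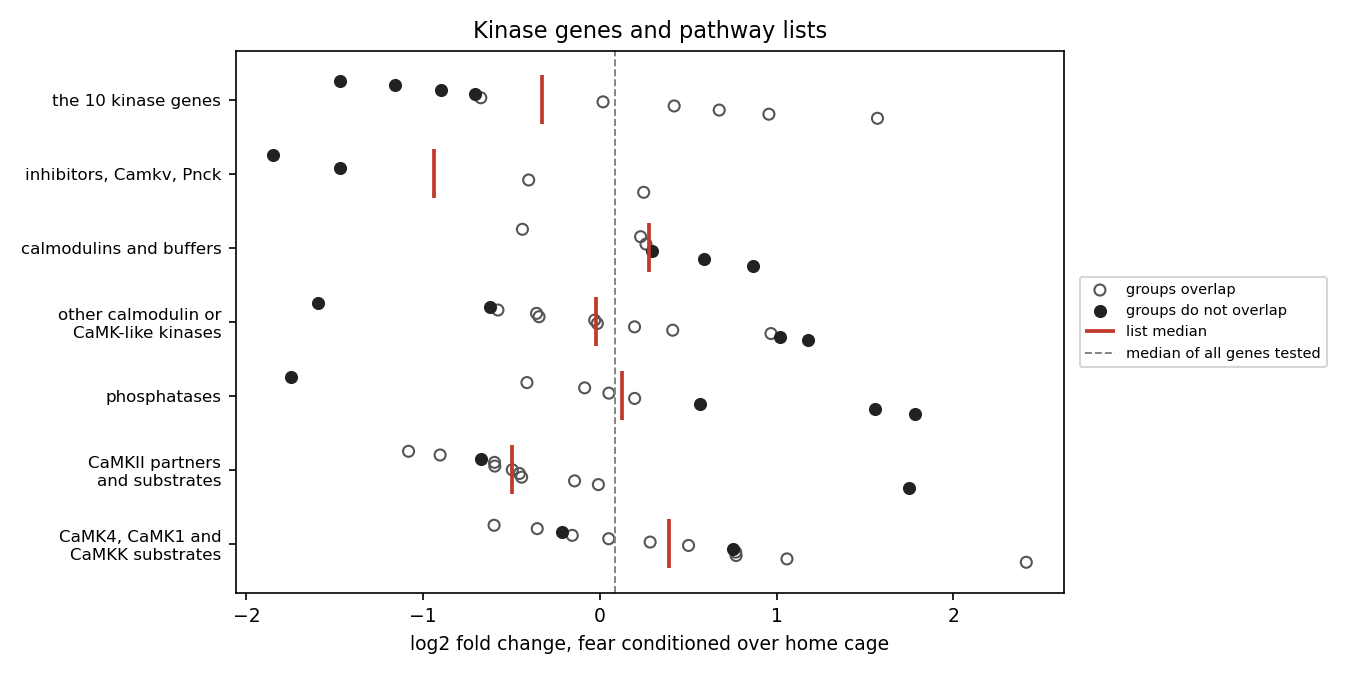
Log2 fold change, fear conditioned over home cage, of the 10 kinase genes and the genes of 6 pathway lists (circles, filled where the groups do not overlap), with red bars at the list medians and a dashed line at the median of all genes tested, 0.083. The kinase genes have a median of -0.33 and 4 filled circles, all below 0, beside 16.1% of all genes lower with no overlap.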

How the data were processed

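TRAP RNA from pools of 3 mice was sequenced in 5 libraries. The labels' processing notes name DESeq and build mm8, the methods name Tuxedo DESeq, and the aligner, annotation and strand setting are not given in the sources used here. The authors deposited a normalized signal per gene and library, in CPM of an effective library size, with a gene length that was used for levels per kilobase. The listed length was below 0 for 9 genes. Only genes with a length above 0 entered the percent of all genes below a level per kilobase. Within 0.01, all values (100%) were whole multiples of the value of 1 read, which served as recovered reads. A floor of 3 reads corresponds to 0.100 to 0.158 CPM and reflects counting error alone, as PCR copies of a molecule are not independent.

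Groups were taken from the labels and compared with limma 3.58.1 (lmFit, eBayes with a trend) on log2(CPM + 1), which understates the change of low genes, for the 13560 genes whose mean was 1 or more (two-sided, adjusted after Benjamini and Hochberg). Cutoffs were an adjusted p of 0.05 and an absolute log2 fold change of 0.5. The exact permutation test enumerated every assignment of 3 and 2 libraries to the groups. Alternatives were a pseudocount of 0.1, no filter, values of 1 or more required in each library, no fold change cutoff, quantile normalization, an adjusted p of 0.1, array weights, each library left out, and edgeR 4.0.16 (quasi-likelihood) and DESeq2 1.42.0 on recovered reads. As a check of the code, the fits were run on simulated counts with the same spread for every gene and library. The home cage libraries here stood further apart than the fear conditioned ones, so that check does not show how the fits behave on these data.

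The kinase genes and lists were chosen with earlier results of these data known. The text names the 10 kinase genes and, per pathway list, those past both cutoffs or otherwise up to 2 with the largest and 2 with the smallest log2 fold change among genes without overlap, and for each kinase gene the 2 tested genes nearest in centred log2 pattern. Camk2n1, Creb1, Rps6ka5, the overlapping neighbours and the marker genes were named after their values were seen. Some genes of the lists are not reported here by name. Identifiers matched gene symbols for all 10. Promoter sequence is from RefSeq. R 4.3.3 and Python 3.11.15 were used.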

Additional observations from a re-analysis of the deposited data

How the results depend on the processing

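The log2 fold changes of all 10 kinase genes kept their sign under the 6 alternatives that use all libraries and can move them (the 4 that alter a filter or cutoff cannot), and Camk2g in DESeq2 was the 1 kinase gene to pass the cutoffs under any of these settings. DESeq2 passed 1296 of 14489 genes, 656 higher and 640 lower, 8 of them pathway genes, whereas limma and edgeR passed 0 (2280 genes in limma and 2404 in edgeR at an unadjusted p under 0.05). The median log2 fold change of all genes was 0.083 in limma and -0.075 in DESeq2, a shift over 0.1. Leaving out 1 library gave 0 to 8025 genes past the cutoffs (0 to 4808 higher, 0 to 3217 lower), 0 to 6 of the kinase genes and 0 to 27 of the pathway genes. Both high counts came without a home cage library, where the remaining one is assumed to vary like the fear conditioned ones: without replicate 6 they were 8025 genes (60.5%) and 6 kinase genes (Camk2a, Camk2g, Camk1, Camk1d, Camk1g, Camkk1), and without replicate 7 they were 3722 (27.5%) and 3 (Camk2b, Camk2d, Camk1). Camk1 passed in both, in opposite directions. Without fear conditioned replicate 3, 1 gene passed.

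With 1 library left out, 4 log2 fold changes reversed sign, and the cause was not tested. They ranged from -0.97 (without home cage replicate 7) to 4.11 for Camk1, from -0.13 (without home cage replicate 7) to 2.04 for Camkk1, from -0.23 (without home cage replicate 6) to 1.07 for Camk2b, and from -0.41 (without home cage replicate 6) to 0.45 for Camk4, which was also negative without fear conditioned replicate 3 (-0.26) or 4 (-0.086). Kinase genes with no overlap and lower values numbered 4 or 5 with any library left out, and higher ones 0 to 2 (Camkk2 without fear conditioned replicate 2, Camk1 and Camkk1 without home cage replicate 6, Camk2b and Camkk2 without home cage replicate 7). Of all genes, 37.3% were lower and 50.2% higher with no overlap without home cage replicate 6, and 40.7% and 37.3% without replicate 7. A gene without overlap stays so with fewer libraries, so these counts say nothing of stability. Not divided by length, the mean share of Camk2b in the home cage group was 60.5%, and that of Camk2g 2.17% after fear conditioning and 5.81% in the home cage group, the shortest of the 4 genes (4804 bases). No paired analysis was possible because the groups share no replicate numbers.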

Other observations

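For each kinase gene, the 2 tested genes nearest in pattern over the 5 libraries are given with the root mean square distance between centred log2(CPM + 1) values, as a description that carries no test. Camk1d lay nearest to Rims2 (0.027), which encodes a protein of the presynaptic active zone, and to Pcgf3 (0.042). Camkk2 lay nearest to Klf9 (0.042), a transcription factor responsive to glucocorticoids, with 238, 475 and 410 CPM after fear conditioning and 159 and 295 CPM in the home cage pools, and to Skil (0.057). Camk4 lay nearest to Gabra4 (0.13), a GABA-A receptor subunit, and to Ppp3ca (0.14), a catalytic subunit of calcineurin, which had 1872, 3499 and 3218 CPM against 2010 and 3538 CPM.

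Camk2a lay nearest to Fam55c (0.061) and Dpysl2 (0.072), Camk2b to Cmpk2 (0.057) and 9030617O03Rik (0.075), Camk2d to Ncapg2 (0.054) and Kcnj3 (0.081), and Camk2g to Btaf1 (0.055) and Tatdn3 (0.073). Camk1g lay nearest to Usp47 (0.10) and Fam154b (0.11). Camkk1 lay nearest to D19Bwg1357e (0.067) and Pet112l (0.10), both low in home cage replicate 7. Camk1 lay nearest to Rwdd3 (0.12) and Mzf1 (0.14), which had 31.0 and 27.7 CPM in home cage replicate 6 and were listed at 0 in replicate 7, where Camk1 had 32 reads. The CREB kinase gene Rps6ka5 was likewise listed at 0 in home cage replicate 7 and had 29.2 CPM in replicate 6 and 16.6 to 41.5 CPM in the fear conditioned libraries.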
